A study of Mus musculus with 9 samples.

Results

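Chemokines, interleukins and colony-stimulating factors are secreted or membrane-tethered proteins with which cells call in, feed and direct leukocytes. The set described here held every gene whose symbol was Ccl, Cxcl or Il followed by a number (ligands, without receptors), together with Cx3cl1, Il1rn, Csf1, Csf2, Csf3, Tnf and Lif. Of 18194 genes measured, 66 were members: 18 CC chemokines, 13 CXC chemokines, 29 interleukins (the antagonist Il1rn among them) and 6 others. RefSeq holds 78 mouse symbols of these kinds, and the other 12, among them Ccl19, Ccl21a and Il22, had no probe set assigned to 1 gene.

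RNA of mouse mammary epithelium was measured on 9 Affymetrix arrays, with 3 biological replicas (lettered A, B and C) of each of 3 kinds of cells. MaSC organoids were grown from sorted mammary stem cells (MaSC, EpCAM-low CD49f-high CD61-positive). yMaSC organoids were grown from luminal differentiated (LD) cells that had been transduced with lentiviral rtTA and a doxycycline-inducible wild-type YAP, and that were grown on without doxycycline after a pulse of it. Both kinds of organoid were kept in undiluted Matrigel with EGF, bFGF, heparin, noggin and R-Spondin1. LD cells (EpCAM-high CD49f-low CD61-negative, from a lineage-negative gate) were sorted fresh from the glands of young adult virgin C57BL/6J mice and were not cultured. Every comparison with LD cells therefore also compares cultured with freshly sorted cells, and these cannot be told apart. The replicas were described as biological, and nothing more was said of which animals they came from.

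Chemokines act on G protein-coupled receptors of leukocytes: CXC chemokines of the Cxcl1 to Cxcl5 kind draw neutrophils through CXCR2, CC chemokines draw monocytes, eosinophils and lymphocytes, and colony-stimulating factors drive the making and survival of granulocytes and macrophages. Epithelial cells, those of the mammary gland included, make many of them when NF-kB, the transcription factor downstream of TNF and interleukin 1 receptors, is active. Interleukin 6, LIF and interleukin 11 share the receptor chain gp130 and signal through STAT3.

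The arrays had medians of 5.11 to 5.15 log2 and upper quartiles of 7.39 to 7.59. The luminal genes Krt8, Krt18 and Epcam were at 12.95 log2 or above on all arrays, yet 7 of 10 luminal markers, these included, were lower in each comparison of organoids with LD cells. The luminal mean was 10.90 to 11.56 in MaSC organoids and 10.99 to 11.36 in yMaSC organoids, against 12.45 to 12.61 in LD cells, and the claudin gene Cldn4 had the largest differences of the list (-3.53 and -3.37). The basal regulator Trp63 was at 8.57, 8.59 and 9.34 in MaSC organoids and 8.96, 8.66 and 8.77 in yMaSC organoids, against 3.94, 3.60 and 3.98 in LD cells. Of 10 basal markers, 6 passed as higher in MaSC organoids and 7 in yMaSC organoids, and 0 as lower. In each comparison 1 of them had a difference below 0. Markers of other cells were present in LD arrays. The mean over 25 leukocyte markers was 3.92 to 4.03 in MaSC organoids and 3.87 to 4.07 in yMaSC organoids, against 5.47 to 5.96 in LD cells, and 19 of the 25 passed the test as lower in each comparison with LD cells. Ptprc (CD45), the pan-leukocyte marker, was 2.70 to 2.98 in MaSC organoids and 2.64 to 2.99 in yMaSC organoids, against 8.17 to 8.94 in LD cells. LD array B stood apart: its mean over 10 endothelial markers was 5.91, against 4.09 and 4.32 in LD arrays A and C, and its mean over 10 fibroblast markers was 6.85, against 5.65 and 5.28. The fibroblast mean was 4.61 to 4.83 in MaSC organoids and 4.51 to 4.76 in yMaSC organoids, below all LD arrays, and 4 of the 10 markers passed as lower and 1 as higher in each comparison with LD cells. Col3a1, a fibrillar collagen of fibroblasts, had differences of -4.75 and -4.79, the lowest of a list whose differences ran up to 2.53 and 2.10. Because these are bulk samples, fewer cells of a type and less RNA per cell cannot be told apart. The part of other cells in the differences below was not tested.

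**Figure D1:**
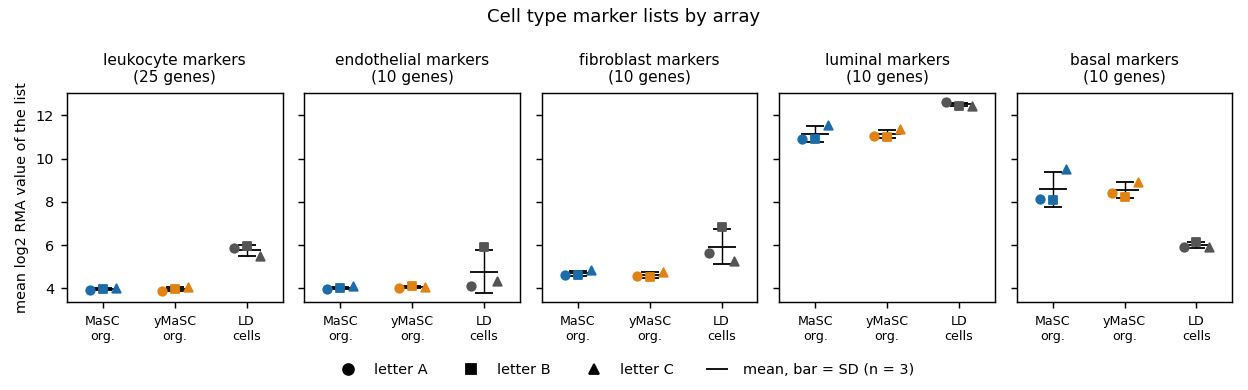
Mean log2 RMA value of 5 lists of cell type markers (y axis) on each array, for MaSC organoids, yMaSC organoids and LD cells (x axis); horizontal marks are means and bars SDs of 3 arrays. The leukocyte mean was 5.47 to 5.96 on LD arrays and at most 4.07 on organoid arrays, and LD array B had the highest endothelial and fibroblast means (5.91 and 6.85).

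Sequences upstream of 4 members are shown here. These members were picked because they moved together in these data, being lower in both kinds of organoid. Cxcl1, Cxcl2 and Cxcl3 are neighbouring genes of chromosome 5 that encode CXCR2 ligands, and Il6 lies elsewhere on the same chromosome. Each window runs from 250 bases before to 50 bases after the annotated start (RefSeq, GRCm38.p6, plus strand, written 5′ to 3′). The longest run that the windows of Cxcl1, Cxcl2 and Cxcl3 shared before the start was GGGAATTTCCC, of 11 bases, which has the form of an NF-kB site. Capitals mark matches on either strand to GGGNNTTTCC, the first 10 bases of that run with the inner pair left free. This motif was chosen after the windows had been read, and a match is not a shown site of binding. The windows are chr5:90890995-90891294 for Cxcl1, chr5:90903649-90903948 for Cxcl2, chr5:90785851-90786150 for Cxcl3 and chr5:30012864-30013163 for Il6.
Cxcl1: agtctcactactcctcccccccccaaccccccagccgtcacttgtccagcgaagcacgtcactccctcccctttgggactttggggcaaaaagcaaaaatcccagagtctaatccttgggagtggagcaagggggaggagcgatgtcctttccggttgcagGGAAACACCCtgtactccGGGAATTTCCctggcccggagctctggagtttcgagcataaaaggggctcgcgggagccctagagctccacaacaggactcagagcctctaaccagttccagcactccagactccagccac
Cxcl2: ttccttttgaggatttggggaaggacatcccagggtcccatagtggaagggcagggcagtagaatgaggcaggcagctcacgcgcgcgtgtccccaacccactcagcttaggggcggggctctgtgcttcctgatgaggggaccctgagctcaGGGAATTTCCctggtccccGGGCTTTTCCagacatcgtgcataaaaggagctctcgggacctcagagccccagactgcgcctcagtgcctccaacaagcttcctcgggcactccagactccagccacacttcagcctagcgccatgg
Cxcl3: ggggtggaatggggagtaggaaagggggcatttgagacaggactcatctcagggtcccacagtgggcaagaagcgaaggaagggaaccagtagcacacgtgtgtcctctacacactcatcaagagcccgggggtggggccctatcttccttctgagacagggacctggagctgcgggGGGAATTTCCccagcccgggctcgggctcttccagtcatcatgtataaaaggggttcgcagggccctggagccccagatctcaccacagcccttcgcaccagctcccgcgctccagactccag
Il6: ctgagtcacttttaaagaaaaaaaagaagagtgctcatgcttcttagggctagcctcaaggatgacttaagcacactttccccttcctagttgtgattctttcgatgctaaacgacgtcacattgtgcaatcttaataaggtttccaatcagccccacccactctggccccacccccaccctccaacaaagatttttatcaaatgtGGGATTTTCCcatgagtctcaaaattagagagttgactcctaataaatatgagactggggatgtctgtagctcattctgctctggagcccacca

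In Cxcl1, Cxcl2 and Cxcl3 the shared run stood at positions -71 to -61, -97 to -87 and -73 to -63 from the start. Cxcl1 had a second match on the minus strand (-89 to -80) and Cxcl2 a second on the plus strand (-78 to -69), and the match of Il6 was GGGATTTTCC at -44 to -35. Over all 32851 promoter windows of the table, 1.63% held GGGNNTTTCC and 0.0426% held GGGAATTTCCC. A window was given for 47 of 66 members, of which 10 held GGGNNTTTCC: Ccl9, Ccl20, Csf1, Cxcl1, Cxcl2, Cxcl3, Il1rn, Il6, Il9 and Il16. Since the motif was read from windows of members that were lower in organoids, nothing is drawn from that count. The window of Cxcl15, which lies among the same neighbours, had no match, and Csf3, Ccl5, Cxcl5 and Il15 had no window.

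The first question was how organoids of either origin differed from LD cells in these ligands. In MaSC organoids 31 of 66 members were lower than in LD cells and 6 were higher at an adjusted p under 0.05 (limma, Benjamini-Hochberg over 18194 genes); over all genes the lower share was 15.2% and the higher share 22.1%, against 47.0% and 9.09% of members. In yMaSC organoids 26 members were lower and 4 higher, which is 39.4% and 6.06% of members, where 14.3% and 21.6% of all genes passed. In either direction 37 of 66 members passed in MaSC organoids and 30 of 66 in yMaSC organoids. Over all genes it was 6791 and 6531 of 18194 (37.3% and 35.9%). The median log2 difference over the members was -0.51 in MaSC organoids and -0.39 in yMaSC organoids, and over all genes it was -0.02 and -0.01. Both comparisons use the same LD arrays. Lower in both were 25 members (13.1% of all genes), and higher in both were 4 (20.7% of all genes). Every organoid array was below every LD array for 34 members (17.1% of all genes) and above for 5 (23.3%). Without LD array B, 27 members were lower and 4 higher in MaSC organoids, and 24 lower and 5 higher in yMaSC organoids.

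By family, 7 of 13 CXC chemokines were lower in MaSC organoids and 8 in yMaSC organoids. For CC chemokines it was 8 and 6 of 18, and for interleukins 10 and 7 of 29. All 6 other members (Csf1, Csf2, Csf3, Cx3cl1, Lif and Tnf) were lower in MaSC organoids, and all but Cx3cl1 in yMaSC organoids. Of all genes 15.2% were lower in MaSC organoids and 14.3% in yMaSC organoids. The split of calls depended on scaling: with all arrays set to a common median over genes, the median of all genes moved to -0.27 log2 in both comparisons. Then 42 members were lower and 3 higher in MaSC organoids, and 43 lower and 4 higher in yMaSC organoids, where 38.4% and 38.1% of all genes were lower and 16.5% and 15.4% higher. The share of calls that were higher went over all genes to 30.0% and 28.8% in place of 59.3% and 60.1%, and with cyclic loess the second was 49.8%.

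**Figure D2:**
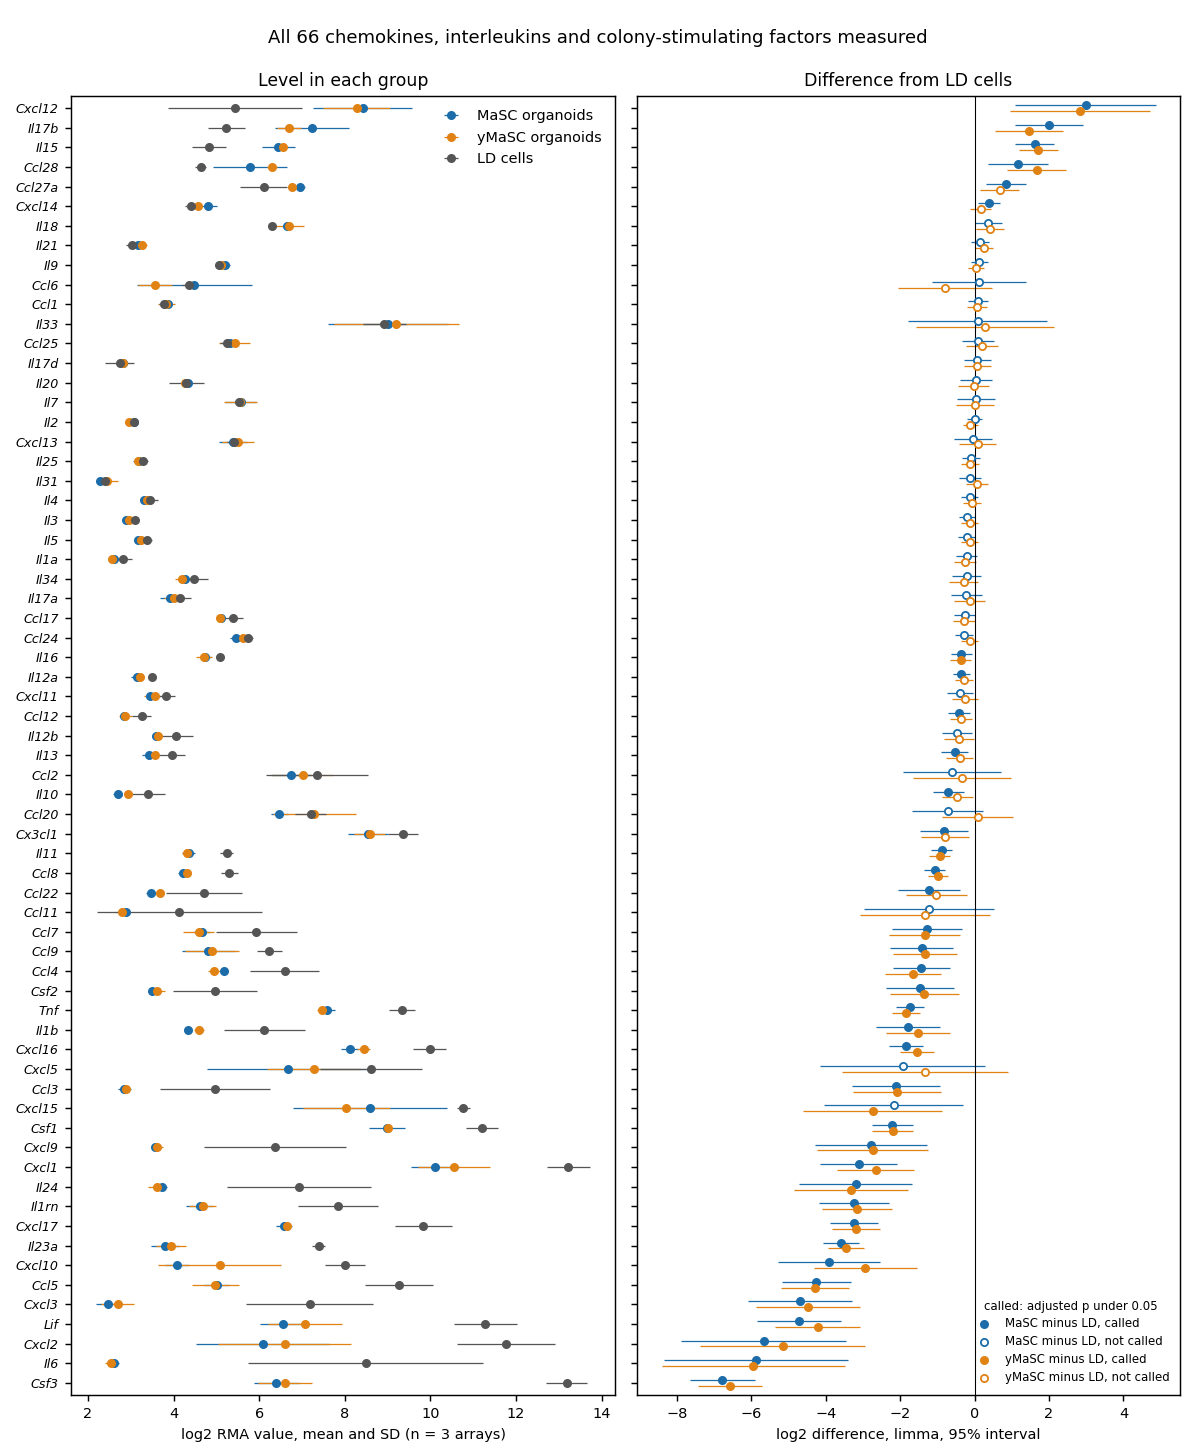
Left, mean and SD (3 arrays per group) of the log2 RMA value of all 66 members in MaSC organoids, yMaSC organoids and LD cells; right, log2 difference from LD cells with its 95% interval, filled where the adjusted p was under 0.05. Differences run between -6.78 for Csf3 and 2.98 for Cxcl12, with 49 of 66 below 0 in each comparison.

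Genes that act on neutrophils had some of the largest differences among the members. Csf3 (G-CSF), which drives granulocyte production, was at 6.03, 6.17 and 7.0 log2 in MaSC organoids and 7.0, 5.87 and 6.94 in yMaSC organoids on arrays A, B and C, against 13.07, 13.70 and 12.77 in LD cells. The groups were far apart, with log2 differences of -6.78 ± 0.38 and -6.58 ± 0.38 (SE; adjusted p = 6.67e-06 and 8.06e-06), or 110-fold and 95.4-fold lower levels in organoids. Cxcl2, a CXCR2 ligand, was at 6.70, 7.24 and 4.32 in MaSC organoids and 7.88, 7.05 and 4.87 in yMaSC organoids, against 11.27, 13.07 and 10.94 in LD cells. Its differences were -5.67 ± 0.98 and -5.16 ± 0.98 (adjusted p = 0.00192 and 0.0033), and letter C was the lowest in both kinds of organoid. Cxcl3, the neighbour that shares the upstream run, had 2.30, 2.32 and 2.81 in MaSC organoids and 2.66, 2.33 and 3.08 in yMaSC organoids, against 7.28, 8.60 and 5.65 in LD cells. Its differences were -4.70 ± 0.61 and -4.49 ± 0.61, and -3.99 and -3.78 without LD array B. Those organoid values lie below the lower quartile of every array, where the size of a difference is poorly resolved.

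Cxcl1, the last of these neighbours, kept a high value in organoids while being lower than in LD cells. It was at 10.54, 10.31 and 9.47 in MaSC organoids and 11.53, 10.01 and 10.14 in yMaSC organoids, against 12.91, 13.81 and 12.95 in LD cells. The differences were -3.12 ± 0.45 and -2.66 ± 0.45 (adjusted p = 0.000768 and 0.00189), and the 2 other probe sets of Cxcl1 gave -3.15 and -2.78 in MaSC organoids. Cxcl5, another CXCR2 ligand of the same stretch, overlapped between groups: 5.24, 5.97 and 8.80 in MaSC organoids and 7.21, 6.21 and 8.39 in yMaSC organoids, against 8.47, 9.86 and 7.49 in LD cells. Neither difference passed (-1.94 and -1.34, adjusted p = 0.158 and 0.33). Without MaSC array C the first was -3.0 (adjusted p = 0.019).

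Cxcl15, the remaining CXC chemokine of the stretch, is known in mouse as a neutrophil chemoattractant of lung. It was at 8.11, 7.08 and 10.59 in MaSC organoids and 7.82, 7.14 and 9.14 in yMaSC organoids, against 10.83, 10.89 and 10.59 in LD cells. MaSC array C equalled the lowest LD array, and the difference passed in yMaSC organoids (-2.74 ± 0.82, adjusted p = 0.0291) and not in MaSC organoids (-2.18 ± 0.82, adjusted p = 0.0675). Without MaSC array C the difference of MaSC organoids was -3.18 (adjusted p = 0.00305), and a second probe set gave -2.58 (adjusted p = 0.0214). In yMaSC organoids the call ended without array A or B of that group or without any 1 of the 3 LD arrays (adjusted p of 0.0637 to 0.104). Cxcl17, a chemokine of mucosal epithelia, separated cleanly, with 6.38, 6.64 and 6.73 in MaSC organoids and 6.56, 6.69 and 6.71 in yMaSC organoids, against 9.27, 10.57 and 9.67 in LD cells. Its differences were -3.25 ± 0.28 and -3.18 ± 0.28 (adjusted p = 5.32e-05 and 6.38e-05).

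Of the cytokines that signal through gp130, Il6 and Lif were lower by over 4 log2 in both kinds of organoid. Il6 was at 2.73, 2.52 and 2.60 in MaSC organoids and 2.65, 2.58 and 2.38 in yMaSC organoids, against 8.0, 11.44 and 6.01 in LD cells. All organoid values lie below the lower quartile of the arrays, and LD values spread over 5.43 log2. The differences were -5.87 ± 1.08 and -5.95 ± 1.08 (adjusted p = 0.00278 and 0.00272), and without LD array B, the highest, -4.39 and -4.47. Lif, named for its inhibition of leukaemia cells, was at 6.06, 7.14 and 6.49 in MaSC organoids and 6.36, 6.82 and 8.03 in yMaSC organoids, against 11.18, 12.07 and 10.60 in LD cells. Its differences were -4.72 ± 0.50 and -4.21 ± 0.50. Il11, the remaining gene of this family, was called in both comparisons at a smaller size (-0.88 and -0.94).

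Tnf and Il1b, inflammatory cytokines that act early, were lower as well, by less, while Il1a, the other agonist of the interleukin 1 receptor, passed in neither comparison (-0.22 and -0.26, adjusted p = 0.215 and 0.145). Tnf, the prototype activator of NF-kB, was at 7.40, 7.64 and 7.74 in MaSC organoids and 7.44, 7.36 and 7.62 in yMaSC organoids, against 8.98, 9.55 and 9.45 in LD cells, with differences of -1.73 ± 0.17 and -1.85 ± 0.17. Il1b was at 4.41, 4.28 and 4.29 in MaSC organoids and 4.50, 4.72 and 4.57 in yMaSC organoids, against 6.66, 6.67 and 5.04 in LD cells (-1.80 ± 0.38 and -1.53 ± 0.38). Il1rn, which blocks the interleukin 1 receptor, had the larger difference of the pair: 4.30, 4.58 and 4.94 in MaSC organoids and 4.33, 4.78 and 4.94 in yMaSC organoids, against 8.39, 6.76 and 8.38 in LD cells (-3.24 ± 0.42 and -3.16 ± 0.42). Agonist and antagonist thus were both higher in LD cells, and LD array B was the lowest of its group for the antagonist.

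Il23a, the p19 subunit of interleukin 23, was even across LD arrays. It was at 3.92, 3.44 and 4.04 in MaSC organoids and 4.12, 3.53 and 4.17 in yMaSC organoids, against 7.23, 7.39 and 7.54 in LD cells (-3.59 ± 0.21 and -3.45 ± 0.21, adjusted p = 8.37e-06 and 1.08e-05). Il24, of the interleukin 10 family, was uneven in LD cells: 3.65, 3.71 and 3.85 in MaSC organoids and 3.40, 3.60 and 3.81 in yMaSC organoids, against 8.51, 5.17 and 7.11 (-3.19 ± 0.67 and -3.33 ± 0.67). Over the alternatives tried its difference in MaSC organoids lay between -4.07 and -2.40, and it passed in each.

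**Figure D3:**
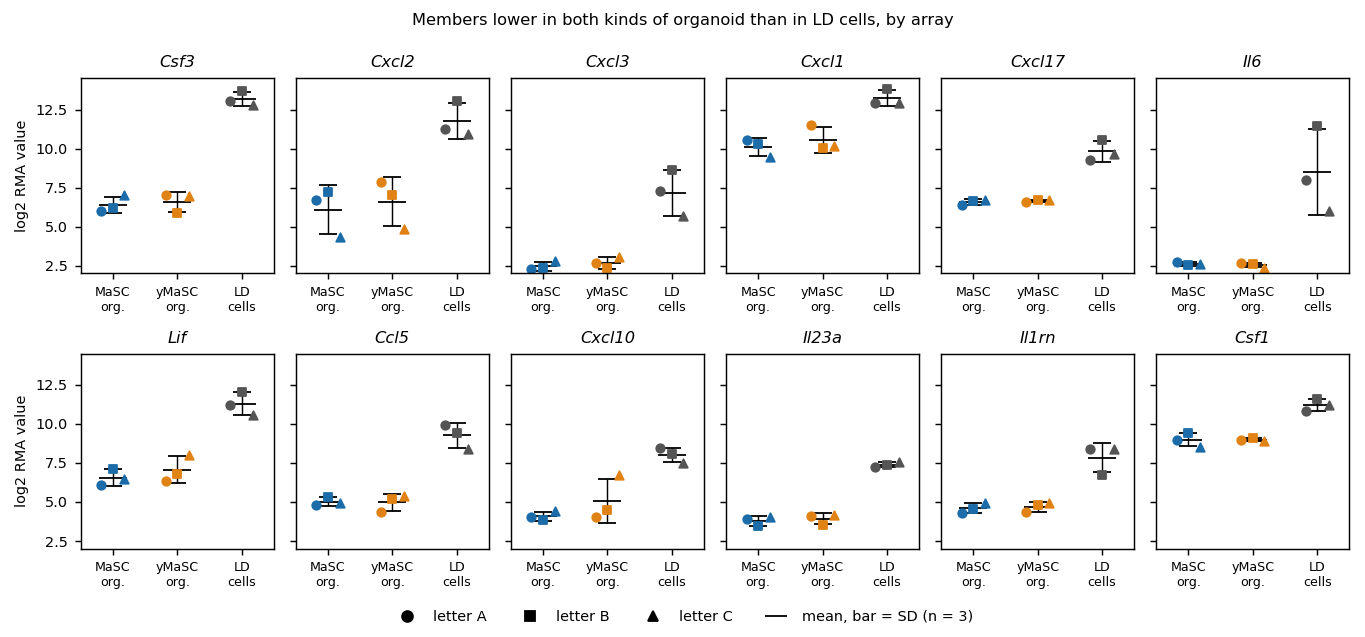
Log2 RMA value (y axis) of 12 members on each array of MaSC organoids, yMaSC organoids and LD cells (x axis); horizontal marks are means and bars SDs of 3 arrays, and symbols give the letter. No organoid array reached the lowest LD array for any of the 12, and Il6 spread over 5.43 log2 within LD cells.

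Of the growth factors of macrophages, Csf1 and Csf2 were lower, and Il34, the other ligand of the receptor of Csf1, passed in neither comparison (-0.22 and -0.29, adjusted p = 0.36 and 0.222). Csf1 (M-CSF) was at 9.00, 9.41 and 8.55 in MaSC organoids and 8.98, 9.12 and 8.90 in yMaSC organoids, against 10.84, 11.58 and 11.18 in LD cells (-2.21 ± 0.24 and -2.20 ± 0.24, adjusted p = 0.000157 and 0.000176). All 4 of its probe sets gave differences of -1.15 or below. Csf2 (GM-CSF) was at 3.44, 3.49 and 3.58 in MaSC organoids and 3.48, 3.55 and 3.82 in yMaSC organoids, against 5.09, 5.89 and 3.92 in LD cells (-1.46 ± 0.40 and -1.35 ± 0.40, adjusted p = 0.0199 and 0.0291). LD array C was near the organoids. The Csf2 call ended in MaSC organoids without array A or B of that group or LD array A (adjusted p of 0.0555 to 0.0597), and in yMaSC organoids without array A or B of that group or LD array A or B (0.0539 to 0.0845).

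Among the CC chemokines, Ccl3, Ccl4 and Ccl5, made by many leukocytes as well as by epithelia, were lower. Ccl5 was at 4.78, 5.34 and 4.92 in MaSC organoids and 4.34, 5.21 and 5.36 in yMaSC organoids, against 9.96, 9.42 and 8.41 in LD cells (-4.25 ± 0.40 and -4.29 ± 0.40, adjusted p = 7.68e-05 and 8.24e-05). Ccl3 was at 2.84, 2.70 and 3.01 in MaSC organoids and 2.92, 2.86 and 2.88 in yMaSC organoids, against 6.39, 4.64 and 3.87 in LD cells (-2.12 ± 0.52 and -2.08 ± 0.52). Ccl4, its neighbour on chromosome 11, was at 5.23, 5.21 and 5.06 in MaSC organoids and 4.79, 5.0 and 5.04 in yMaSC organoids, against 7.51, 6.31 and 5.97 in LD cells (-1.43 ± 0.33 and -1.65 ± 0.33). All 3 of these genes were lowest on LD array C among LD cells, where the mean of leukocyte markers was also the lowest (5.47, against 5.86 and 5.96). The part of leukocytes in these values was not tested.

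The calls of Ccl9, Ccl7 and Ccl22 were each lost when any 1 of several arrays was left out. Ccl9, a chemokine of mouse macrophages, was at 4.47, 5.53 and 4.43 in MaSC organoids and 4.74, 5.59 and 4.36 in yMaSC organoids, against 6.10, 6.57 and 6.03 in LD cells (-1.42 ± 0.37 and -1.34 ± 0.37, adjusted p = 0.0161 and 0.022). It was highest with letter B in both kinds of organoid, and a second probe set did not pass (-0.72 and -0.47). The Ccl9 call ended in MaSC organoids without array A or C of that group or LD array B, and in yMaSC organoids without array A or C of that group or LD array B (adjusted p of 0.0528 to 0.0698). Ccl7, a CCR2 ligand, was at 4.68, 4.85 and 4.45 in MaSC organoids and 4.45, 4.32 and 5.0 in yMaSC organoids, against 6.01, 6.85 and 4.95 in LD cells (-1.28 ± 0.41 and -1.35 ± 0.41). Its groups touched at yMaSC array C. The Ccl7 call ended without any 1 of MaSC arrays A, B and C, yMaSC arrays A and B and LD arrays A and B in MaSC organoids (adjusted p of 0.0547 to 0.102), and without MaSC array A, yMaSC array A or B or LD array A or B in yMaSC organoids (0.051 to 0.105).

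Ccl22, a CCR4 ligand of dendritic cells, was at 3.51, 3.60 and 3.34 in MaSC organoids and 3.57, 3.71 and 3.75 in yMaSC organoids, against 5.66, 4.56 and 3.91 in LD cells. It passed in MaSC organoids (-1.23 ± 0.36, adjusted p = 0.0265) and not in yMaSC organoids (-1.03 ± 0.36, adjusted p = 0.0538). The first call ended without any 1 of the 3 MaSC arrays (0.0573 to 0.0711), and the second was made without LD array C (-1.43, adjusted p = 0.00685). Ccl2, the main CCR2 ligand, did not differ beyond its spread: 7.02, 7.01 and 6.20 in MaSC organoids and 7.69, 7.10 and 6.27 in yMaSC organoids, against 6.94, 8.69 and 6.43 in LD cells (-0.61 and -0.33, 95% intervals of -1.93 to 0.71 and -1.65 to 0.99). Without LD array B its differences were 0.06 and 0.34. Array C had the lowest Ccl2 in each of the 3 groups, though letters pair the organoids only.

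The membrane-anchored chemokines went different ways in size. Cxcl16, the CXCR6 ligand, was at 8.05, 8.37 and 7.97 in MaSC organoids and 8.57, 8.26 and 8.48 in yMaSC organoids, against 9.70, 10.42 and 9.82 in LD cells (-1.85 ± 0.20 and -1.54 ± 0.20, adjusted p = 0.000152 and 0.000445). Cx3cl1 (fractalkine) was at 8.61, 8.97 and 8.04 in MaSC organoids and 8.66, 8.90 and 8.17 in yMaSC organoids, against 8.97, 9.62 and 9.51 in LD cells. Its groups met at MaSC array B and LD array A, and it passed in MaSC organoids (-0.83 ± 0.28, adjusted p = 0.0479) and not in yMaSC organoids (-0.79 ± 0.28, adjusted p = 0.0583). The other 3 probe sets of Cx3cl1 did not pass in either comparison. The first call ended without MaSC array A or C, yMaSC array A or B or LD array B or C (0.0539 to 0.142), and the second was made without MaSC array B or C or LD array A (0.0349 to 0.0493).

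Chemokines that interferon gamma induces and that draw T cells through CXCR3 were lower, except Cxcl11. Cxcl10 was at 4.02, 3.85 and 4.40 in MaSC organoids and 4.03, 4.49 and 6.70 in yMaSC organoids, against 8.44, 8.08 and 7.50 in LD cells (-3.92 ± 0.61 and -2.93 ± 0.61, adjusted p = 0.00109 and 0.00517). yMaSC array C stood above every other organoid array. Cxcl9 was at 3.52, 3.63 and 3.57 in MaSC organoids and 3.49, 3.64 and 3.73 in yMaSC organoids, against 4.66, 7.97 and 6.45 in LD cells (-2.79 ± 0.66 and -2.74 ± 0.66). LD array B was again the highest, and without it the differences of Cxcl9 were -1.98 and -1.94. A second probe set of Cxcl9 did not pass (-0.72 and -0.63, limma adjusted p = 0.171 and 0.231). Cxcl11 was at 3.30 to 3.83 over organoids and 3.61 to 4.0 in LD cells and passed in neither comparison.

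A few members went the other way. Cxcl12, the CXCR4 ligand through which stromal cells hold leukocytes and stem cells in place, was at 8.39, 7.28 and 9.57 in MaSC organoids and 8.56, 7.38 and 8.88 in yMaSC organoids, against 4.56, 7.25 and 4.49 in LD cells (2.98 ± 0.83 and 2.84 ± 0.83, adjusted p = 0.0205 and 0.0261). LD array B, the array with the highest endothelial and fibroblast means, was close to the lowest organoid array, and without it the differences were 3.89 and 3.75 (adjusted p = 0.00276 and 0.0034). The Cxcl12 call ended without array A or C of the organoid group or LD array A or C (0.056 to 0.0897). A second probe set passed in both (2.42 and 2.35), and another showed no difference (0.08 and 0.03). In the same LD array B, Ccl11 (eotaxin), an eosinophil chemokine of fibroblasts, was at 6.36, against 3.06 and 2.98 in the other LD arrays and 2.62 to 2.95 over all organoids, and did not pass.

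Il15, which keeps natural killer and memory T cells alive, was higher in organoids on every array: 6.28, 6.89 and 6.18 in MaSC organoids and 6.57, 6.47 and 6.60 in yMaSC organoids, against 5.10, 5.02 and 4.38 in LD cells (1.62 ± 0.23 and 1.71 ± 0.23, adjusted p = 0.000719 and 0.000562). Il17b, a member of the interleukin 17 family that binds IL17RB, was at 7.27, 6.35 and 8.09 in MaSC organoids and 7.02, 6.56 and 6.52 in yMaSC organoids, against 4.75, 5.36 and 5.59 in LD cells (2.0 ± 0.40 and 1.47 ± 0.40). Its call in yMaSC organoids ended without yMaSC array A or LD array A (adjusted p of 0.0726 and 0.0719). The receptor Il17rb was also higher, at 5.89, 5.56 and 6.24 in MaSC organoids and 5.79, 5.84 and 5.51 in yMaSC organoids, against 5.09, 4.57 and 4.85 in LD cells. It was picked for naming after its values were seen.

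Ccl28, a chemokine of mucosal epithelia that in the lactating gland draws plasma cells making IgA, was at 5.99, 6.53 and 4.85 in MaSC organoids and 6.32, 6.40 and 6.16 in yMaSC organoids, against 4.73, 4.48 and 4.68 in LD cells (1.16 ± 0.35 and 1.66 ± 0.35, adjusted p = 0.0301 and 0.0059). MaSC array C lay near LD cells. The call in MaSC organoids ended without MaSC array A or B or any 1 of the 3 LD arrays (0.0614 to 0.0955), and 2 other probe sets of Ccl28 passed in neither comparison. Ccl27a, which shares the receptor CCR10 with Ccl28, was higher in MaSC organoids (0.85, adjusted p = 0.0198) and missed the threshold in yMaSC organoids (0.67, adjusted p = 0.053), and its organoid arrays, at 6.72 to 7.06, all lay above LD cells (5.56 to 6.65). The Ccl27a call in MaSC organoids was kept in 14 of 21 alternatives, and quantile normalisation gave a limma adjusted p of 0.125. In yMaSC organoids 5 of 21 alternatives called Ccl27a. Cxcl14 was higher in MaSC organoids by 0.40 (adjusted p = 0.0393). With a common median over genes that difference was 0.15 and did not pass. A second probe set of Cxcl14 gave 1.25 in MaSC organoids (limma adjusted p = 0.042) and 0.98 in yMaSC organoids (adjusted p = 0.1).

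**Figure D4:**
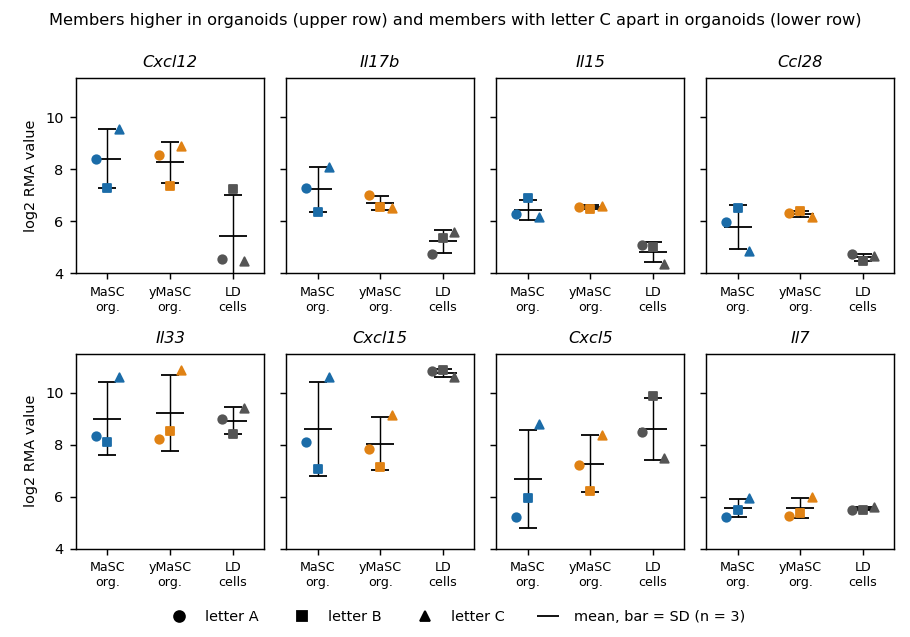
Log2 RMA value (y axis) of 8 members on each array of MaSC organoids, yMaSC organoids and LD cells (x axis); horizontal marks are means and bars SDs of 3 arrays, and symbols give the letter. In the upper row Il15 is higher on every organoid array than on any LD array, and LD array B of Cxcl12 lies at 7.25; in the lower row Il33 of letter C is at 10.61 and 10.88, apart from the other organoids.

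Organoids of 1 letter resembled each other across the 2 kinds, so the letter was tested in the 6 organoid arrays with the kind of organoid as a term. It passed for 9 of 66 members (13.6%) and for 5.52% of all genes, with 15 members at an unadjusted p under 0.05. Each of these fits has few degrees of freedom, and with any 1 organoid array left out 0 members and 0 of 18194 genes passed (13 to 18 members at an unadjusted p under 0.05). Il33, an interleukin 1 family alarmin kept in epithelial nuclei, was at 8.32, 8.09 and 10.61 in MaSC organoids and 8.23, 8.51 and 10.88 in yMaSC organoids, against 8.97, 8.40 and 9.41 in LD cells. Letter C lay 2.41 and 2.51 above the mean of A and B (adjusted p for the letter = 0.00541), and the comparison with LD cells gave 0.08 and 0.28, with 95% intervals of -1.79 to 1.95 and -1.59 to 2.15.

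Il7, which lymphocyte precursors need, moved the same way by less, at 5.24, 5.50 and 5.95 in MaSC organoids and 5.28, 5.39 and 6.0 in yMaSC organoids, against 5.50, 5.50 and 5.61 in LD cells (adjusted p for the letter = 0.0374). Its differences from LD cells were 0.03 and 0.02. Cxcl15 and Cxcl12 were also higher with letter C, by 3.0 and 1.66 log2 and by 1.74 and 0.91 log2 over the mean of A and B in MaSC and yMaSC organoids (adjusted p = 0.036 and 0.0312). Cxcl2 went the opposite way, by -2.65 and -2.60 (adjusted p = 0.022), and so did Ccl2 (-0.82 and -1.13), Cx3cl1 (-0.75 and -0.61) and Ccl9 (-0.57 and -0.81). Il23a, the last of the 9, was lowest with letter B. Means of most marker lists were also at their highest with letter C within each kind of organoid. This held for luminal markers (11.56 in MaSC organoids and 11.36 in yMaSC organoids), fibroblast markers (4.83 and 4.76), leukocyte markers (4.03 and 4.07) and basal markers. For endothelial markers it held in MaSC organoids alone. For basal markers the mean was 8.15, 8.08 and 9.50 in MaSC organoids and 8.41, 8.23 and 8.94 in yMaSC organoids. Whether the members and those markers vary from a shared source was not tested. Leaving out both arrays of letter C, 28 members were lower and 3 higher in MaSC organoids, and 24 lower and 4 higher in yMaSC organoids. Of all genes 14.1% and 13.5% were then lower and 21.1% and 21.5% higher.

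The next question was whether yMaSC organoids differed from MaSC organoids. No member passed (0 of 66, where 0% of all genes passed), and no member had an unadjusted p under 0.05 in limma, which 104 of 18194 genes did. Since the letters paired the organoids, the fit was repeated in the 6 organoid arrays with the letter as a block. It too called 0 members and 0 genes, with 596 genes and 2 members under 0.05 before adjustment. These were Il1b and Il10, 0.27 and 0.24 log2 higher in yMaSC organoids (adjusted p = 0.964 for both, limma). These p-values do not show equality, so the intervals matter. The 95% interval of the difference lay within 1 log2 for 41 of 66 members without the block and for 56 with it in organoids alone. Without the block it did so for 16954 of 18194 genes, a larger share than of members.

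The member differences between organoids lay between -0.92 for Ccl6 and 0.98 for Cxcl10. For Csf3 the difference was 0.20 (95% interval of -0.67 to 1.07), for Csf1 0.01 (-0.53 to 0.56), for Ccl5 -0.04 (-0.96 to 0.87) and for Il15 0.10 (-0.43 to 0.62). These intervals are from the fit without the block, which pools the spread of LD cells with that of organoids. They were wide for Cxcl2 (0.51, -1.71 to 2.74), Il6 (-0.08, -2.55 to 2.39) and Cxcl10 (0.98, -0.40 to 2.36). With the block in organoids alone they were -0.13 to 1.16, -0.30 to 0.14 and -0.10 to 2.07, in the same order. Il6 varied mainly within LD cells (SD of 2.75, against 0.11 in MaSC and 0.14 in yMaSC organoids). Its organoid values lie below the lower quartile of the arrays, where the size of a difference is poorly resolved. Compared letter by letter, Cxcl10 differed by 0.01, 0.64 and 2.30, the last of these with letter C. Lif was 0.51 higher in yMaSC organoids on average, with letter differences of 0.30, -0.32 and 1.54. Ccl6, a CC chemokine of myeloid cells, was at 6.03 on MaSC array C and at 3.20 to 3.98 on the other organoid arrays.

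**Figure D5:**
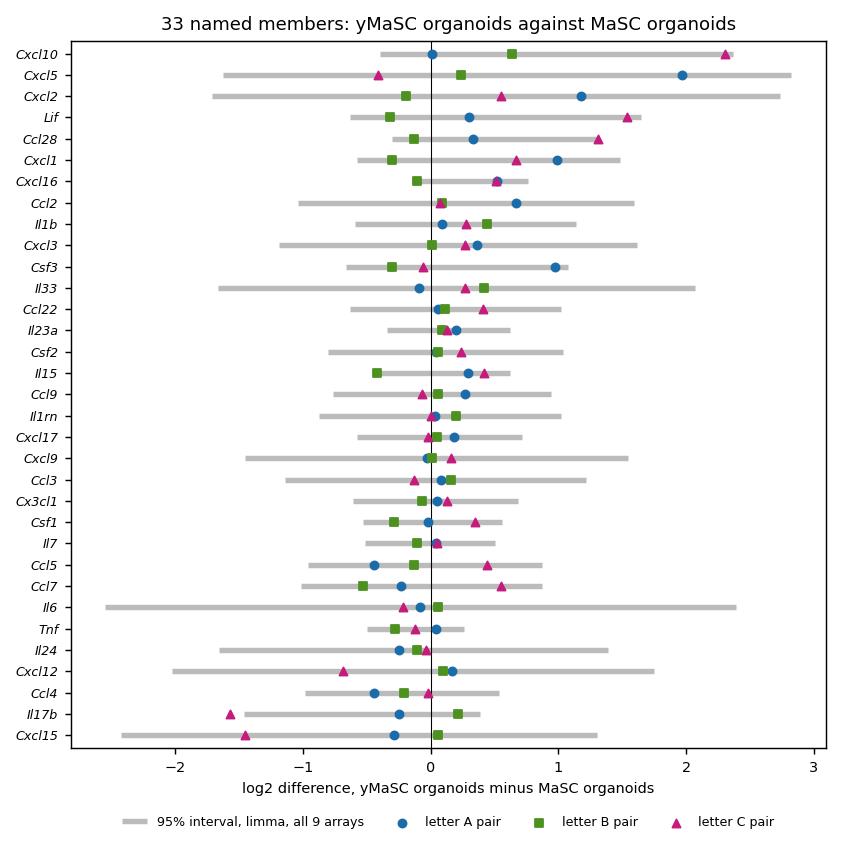
Log2 difference, yMaSC organoids minus MaSC organoids, for the 33 members given by array: grey bars are 95% intervals of the fit to all 9 arrays, and symbols are the differences between the arrays of each letter. Every grey bar contains 0, and the letters spread most for Cxcl5 (-0.41 to 1.97) and Cxcl10 (0.01 to 2.30).

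The remaining 33 members lay between 2.22 and 8.40 log2 on all arrays, and 9 of them, Ccl27a and Cxcl14 included, passed in at least 1 comparison with LD cells. Ccl8, Il11 and Il16 were lower in both, with Ccl8, a monocyte chemoattractant, at -1.07 and -0.98. Ccl8 and Il11 kept both calls in all 20 alternatives, and Il16 (adjusted p = 0.0497 and 0.0417) kept its call in 6 of 20 in MaSC organoids and in 9 of 20 in yMaSC organoids. Ccl12, Il10, Il12a and Il13 were lower in MaSC organoids alone, by less than 0.8 log2, and the difference between the organoids did not pass for any of them. The 24 others had differences of -1.33 to 0.41, and 11 members had every group mean below the lowest lower quartile of the arrays: Ccl12, Il1a, Il2, Il3, Il4, Il5, Il10, Il17d, Il21, Il25 and Il31. Ccl20, which draws CCR6-bearing lymphocytes, was at 6.32 to 6.69 in MaSC organoids and 6.67, 6.78 and 8.40 in yMaSC organoids, against 6.78 to 7.47 in LD cells, and passed in neither. Il18, an interleukin 1 family cytokine of epithelia, was at 6.35 to 7.02 over organoids and 6.22 to 6.37 in LD cells and passed in neither.

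Position was compared next. Members with at most 2 other coding genes between them formed 11 runs. In the run of Cxcl5, Cxcl3, Cxcl15, Cxcl1 and Cxcl2 on chromosome 5, 3 of 5 were lower in both kinds of organoid, and in the run of Ccl5, Ccl9, Ccl6, Ccl3 and Ccl4 on chromosome 11 it was 4 of 5. The other long run of chromosome 11 (Ccl2, Ccl7, Ccl11, Ccl12, Ccl8 and Ccl1) had 2 of 6, and the T-helper cytokine run of Il4, Il13 and Il5 had 0 of 3. Cxcl9 and Cxcl10 had 2 of 2, and Il24, Il20 and Il10 had 1 of 3. Csf2 and Il3 had 1 of 2, as did Il1a and Il1b. The runs of Cxcl14 and Il9, of Il2 and Il21, and of Ccl22, Cx3cl1 and Ccl17 had 0. Of all members 37.9% were lower in both, and of all genes 13.1%. The runs are short, so nothing is drawn from these counts about position.

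Receptors for these ligands were lower more often than higher too, though most did not pass. Of 62 measured cytokine and chemokine receptors, 19 were lower and 7 higher in MaSC organoids, and 17 and 7 in yMaSC organoids, with medians of -0.19 and -0.16 log2. Over all genes 15.2% were lower and 22.1% higher in MaSC organoids, and 14.3% and 21.6% in yMaSC organoids. Ccr7, the receptor that takes lymphocytes and dendritic cells to lymph nodes, had the largest difference: 3.42, 3.24 and 3.07 in MaSC organoids and 3.42, 3.52 and 3.75 in yMaSC organoids, against 8.17, 7.56 and 7.15 in LD cells. Cxcr5, of B cells, followed at 2.85 to 3.26 and 2.70 to 3.35, against 5.37 to 6.32 in LD cells. The B-cell marker Ms4a1 (CD20) was at 3.28 to 3.71 in MaSC organoids and 3.32 to 3.42 in yMaSC organoids, against 7.0 to 8.14 in LD cells.

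Other receptors among the largest differences are not confined to leukocytes. Il6ra, the binding chain for interleukin 6, was at 5.63, 5.86 and 5.29 in MaSC organoids and 5.58, 5.60 and 6.21 in yMaSC organoids, against 8.35, 8.35 and 8.34 in LD cells (-2.75 and -2.55). Il1r1, the signalling receptor of interleukin 1, was at 6.58, 6.69 and 7.39 in MaSC organoids and 6.83, 6.88 and 6.98 in yMaSC organoids, against 9.05, 9.66 and 8.96 in LD cells (-2.34 and -2.33). Il18r1 had differences of -2.38 and -1.90. Ackr3, an atypical receptor that takes CXCL12 out of the medium, was higher, at 10.26, 10.61 and 10.06 in MaSC organoids and 9.64, 10.37 and 9.46 in yMaSC organoids, against 7.95, 8.21 and 8.51 in LD cells (2.09 and 1.60).

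Most genes of the NF-kB pathway and its feedback were lower in organoids. Of 30 measured, 18 were lower and 4 higher in MaSC organoids, and 19 and 4 in yMaSC organoids, with medians of -1.05 and -1.14 log2, where 15.2% and 14.3% of all genes were lower and 22.1% and 21.6% higher. Icam1, the adhesion molecule induced by NF-kB, was at 7.31, 7.13 and 8.21 in MaSC organoids and 8.28, 7.09 and 7.59 in yMaSC organoids, against 11.38, 11.22 and 11.16 in LD cells (-3.70 and -3.60). Zc3h12a (regnase-1), an RNase that degrades Il6 mRNA and other cytokine mRNAs, had differences of -3.62 and -3.43, and Nfkbiz, a nuclear cofactor for Il6 and other late targets, of -2.99 and -3.10. The subunits Rel and Relb had -3.14 and -2.93 and -2.20 and -2.05, and Tnip1, an inhibitor that works with TNFAIP3, -2.32 and -2.28. The 4 genes called higher were Tlr4 (1.71 and 1.53), Sod2 (1.15 and 1.11), Irak2 (0.87 and 0.80) and Ikbkg (0.73 and 0.64). Vcam1 (limma adjusted p = 0.494 and 0.413) and Ptgs2 (0.117 and 0.201), also in the list, passed in neither comparison.

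In the IL-6 family and STAT3 list, of 18 measured, 6 were lower and 4 higher in MaSC organoids, and 6 and 3 in yMaSC organoids. The higher calls are near the background, since 22.1% and 21.6% of all genes were higher, and 15.2% and 14.3% were lower. Clcf1, a gp130 cytokine outside the interleukin naming, was at 4.19, 4.87 and 4.44 in MaSC organoids and 4.29, 4.46 and 4.97 in yMaSC organoids, against 7.82, 8.44 and 6.89 in LD cells (-3.22 and -3.14). Cish, a feedback inhibitor of STAT5, had -2.82 and -2.61, and the kinase Jak2 -0.82 and -1.02. Ctf1 (cardiotrophin 1), another gp130 cytokine, was higher, at 8.63, 8.67 and 8.61 in MaSC organoids and 8.60, 8.67 and 8.56 in yMaSC organoids, against 7.25, 7.23 and 7.67 in LD cells (1.25 and 1.23). Pias3, an inhibitor of STAT3, was 0.68 and 0.62 higher, and Socs2, a feedback inhibitor of growth hormone signalling, had -0.62 in MaSC organoids (adjusted p = 0.0195) and -0.41 in yMaSC organoids (adjusted p = 0.0917). Cytokines of 1 receptor family thus moved both ways, Il6, Lif, Il11 and Clcf1 lower and Ctf1 higher in organoids than in LD cells.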

How the data were processed

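Total RNA was hybridised to an Affymetrix mouse array. The deposited values are on a log2 scale. Per the labels the authors computed them with RMA, which subtracts background, equalises the distributions of arrays by quantiles and summarises probes into probe sets. Sources used here name no RMA version. Of 45101 probe sets, 34958 had 1 gene in the array's annotation, 932 several and 9211 none, and 34754 were matched to RefSeq by their gene identifier. Each gene was represented by its brightest probe set on average over the 9 arrays; 66 members had 97 probe sets, and 21 had more than 1. The 3 receptors Il7r, Il9r and Il21r, which the symbol pattern also takes in, were left out. No other columns of samples were present (0).

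With limma 3.58.1 in R 4.3.3, 3 groups were fitted over all 9 arrays, and p-values were adjusted by Benjamini and Hochberg's method across 18194 genes, with calls under 0.05, with no filter on low values. An F test of the letter was run in the 6 organoid arrays. Samples of the same letter correlated in their deviations from group means between the 2 kinds of organoid (r = 0.607, 0.611 and 0.649) but not between LD cells and organoids (-0.046 to 0.045), so letters pair the organoids only; this pairing comes from the data. On simulated data for MaSC organoids minus LD cells over 18194 genes, the fit called 69% of the genes shifted by 1 log2 and 93% of those shifted by 2. For the letter test it called 38% and 85%. The simulations shifted 100 genes by each amount and drew arrays independently. In the data 37.3% of all genes passed in MaSC organoids against LD cells. The simulated shares therefore hold for the simulated setting alone. The number of arrays limits the precision. P-values set each difference against the spread between these replicas, which the main fit pools over the 3 groups.

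Members and gene lists were chosen with earlier results of these data known. Values by array are given for members called in either comparison with LD cells with at least 1 log2 in both, called for the letter, or above the upper quartile of all genes in a group (33), and for up to 6 called genes of each other list with the largest difference in MaSC organoids minus LD cells. Genes named beyond this, such as Ms4a1, Il18 and Ccl20, were chosen after their values were seen. Promoter windows came from a RefSeq table. Alternatives were the replicate block, other scalings, filters, probe set rules, weights and priors, and leaving out arrays; figures were drawn with matplotlib 3.10.9.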

Additional observations from a re-analysis of the deposited data

How the results depend on the processing

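Of 37 members called in MaSC organoids and 30 in yMaSC organoids, 23 and 23 kept call and direction under all alternatives (20 or 21). The array-dependent calls among the named members stand in the text above. Other processing ended calls too. In MaSC organoids Ccl28 was lost with a common median (limma adjusted p = 0.0637) and probe set means (0.143). Cx3cl1 was lost there with probe set means (0.252) and array weights (0.0702), and Ccl22 with quantile normalisation (0.0501). Ccl9 was lost in both comparisons with probe set means (0.0629 and 0.109), and in yMaSC organoids with array weights (0.127). A common median added Cxcl15 in MaSC organoids and Ccl22 and Cx3cl1 in yMaSC organoids. Against LD cells the count of calls lay between 26 and 38 (MaSC organoids) and 24 and 31 (yMaSC organoids) with 1 array left out. Keeping genes above the median of mean values tested 19 members and called 14 in each comparison, fewer because fewer members were tested. A common median called 45 and 47; its cause was not tested. Of the yMaSC and MaSC difference 0 members were called under every alternative. The letter test called 0 to 0 members with 1 organoid array left out, an alternative added after seeing the data, and 6 to 9 under the others.

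With the replicate block (letter as a fixed term) 36 members were called in MaSC organoids and 32 in yMaSC organoids, and as a random block 39 and 35 (correlation 0.1); letters do not pair LD cells with organoids. The block called Cxcl15 in MaSC organoids (adjusted p = 0.03 and 0.0488) and Cx3cl1 in yMaSC organoids (0.0264 and 0.0413), and as a random block Ccl22 in yMaSC organoids (0.0433); among the named members it changed no other call.

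Among the 33 members given by array, signs turned for Il33, Il7 and Ccl2, which passed in neither comparison; the cause was not tested. Among the others, Cxcl14, called in MaSC organoids, lay between -0.0967 and 0.57 in yMaSC organoids. In MaSC organoids Il33 was at -0.17 with a common median, -0.0435 with quantile normalisation, -0.14 with cyclic loess, -0.52 with array weights and -0.72 without letter C, and between -0.72 and 0.54 with 1 array left out. Il7 was at -0.22, -0.11, -0.0364, -0.13 and -0.17 in the same order, and -0.17 to 0.19. Ccl2 lay between -1.07 and 0.0583 with 1 array left out. In yMaSC organoids Il33 was at -0.36 with array weights and -0.56 without letter C, and -0.56 to 0.77 with 1 array left out. Il7 was at -0.24 with a common median, -0.13 with quantile normalisation, -0.0484 with cyclic loess, -0.12 with array weights and -0.20 without letter C, and -0.20 to 0.16. Ccl2 was at 0.18 with array weights and 0.0417 without letter C, and -0.80 to 0.34.

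Array signal gives no detection limit here, so members below the lower quartile of the arrays, such as Il6 and Cxcl3 in organoids, have differences of unresolved size. No sample of LD cells in culture or of freshly sorted MaSC was analysed here.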
